A study of Homo sapiens with 4 samples.

Results

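The respiratory chain genes that are encoded in the nucleus were examined in untreated HaCaT keratinocytes. Members were the protein-coding genes outside the mitochondrial DNA whose symbol begins with NDUFA, NDUFB, NDUFC, NDUFS, NDUFV, UQCR, COX4, COX5, COX6, COX7, COX8 or ATP5, or is SDHA, SDHB, SDHC, SDHD or CYC1. The 8 assembly factors named NDUFAF and 2 readthrough names with a hyphen were left out. This gave 88 members among 19233 protein-coding genes and 44591 genes in all, of which 39 belonged to complex I, 4 to complex II, 10 to complex III, 17 to complex IV and 18 to complex V. The symbols are those of the files, so that ATP5A1, ATP5B and ATP5G1 stand for the genes now called ATP5F1A, ATP5F1B and ATP5MC1. ATP5S and ATP5SL matched the rule by name, although they are not held to be subunits of the synthase, and NDUFA4, counted here with complex I, is known to sit with complex IV.

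RNA-seq was carried out on 1 group of 4 replicates of HaCaT, a spontaneously immortalized line of human epidermal keratinocytes, without any treatment. The labels give DMEM with 12% fetal bovine serum at 37 °C and 5% CO2, and total RNA cleaned with DNase I. The study describes the 4 samples as biological repeats, the labels only number them, and with a single line and no second group no condition could be compared.

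The respiratory chain passes electrons from NADH (complex I) and succinate (complex II) through ubiquinone to complex III, then by cytochrome c to complex IV, where oxygen is reduced. Complexes I, III and IV pump protons across the inner mitochondrial membrane, and complex V, the ATP synthase, lets them flow back to make ATP. Complexes I, III, IV and V are built from subunits of both genomes, the catalytic and proton-pumping core being partly encoded in mitochondrial DNA, whereas every subunit of complex II is encoded in the nucleus. Several subunits of complex IV have a general form and a second form that is used in muscle, lung or testis.

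The 4 libraries differed in depth and composition. Replicate 1 held 73082279 counted reads and replicates 2 to 4 held 17056035 to 19745170. Protein-coding genes took 76.1% of the counts in replicate 1 and 95.3% to 96.4% in the others. Levels are therefore given as TPM over protein-coding genes, that is the deposited count divided by the deposited gene length and scaled so that the protein-coding genes of a library sum to 1000000. A count of 3 on a gene of 1 kb, taken as the smallest shown level, was worth 0.123 TPM in replicate 1 and 0.334 to 0.451 TPM in replicates 2 to 4. All 10 keratinocyte markers were detected, with a median of 1085 TPM, whereas 0 of 5 blood markers, 1 of 4 melanocyte markers, 1 of 5 muscle markers and 2 of 6 fibroblast markers passed the limit of a mean TPM above 1, and the summed level of each of these other lists was at most 9.60 TPM in any replicate. Of these lists, 1 blood marker and 1 melanocyte marker had no count in any library.

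Of the 88 members, 82 had a mean TPM above 1, or 93.2%, against 63.3% of all protein-coding genes. All 39 members of complex I, all 4 of complex II and all 10 of complex III passed this limit, as did 12 of 17 in complex IV and 17 of 18 in complex V. The detected members were abundant messages, since 61 of the 82, or 74.4%, had a mean TPM above 100 against 14.3% of the 12165 detected protein-coding genes. Their median was 208 TPM and that of all detected genes was 24.5 TPM. In every replicate 77 of the 82 stood above 10 TPM, a limit for which the share of all detected genes was not computed. The members were also short, with a median deposited length of 1027.5 bases against 3276 bases for all detected genes. TPM divides by this length, and without any length correction the members took 1.31%, 0.749%, 1.13% and 0.742% of the protein-coding counts in replicates 1 to 4.

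The members together took 2.76%, 1.69%, 2.21% and 1.63% of the protein-coding TPM in replicates 1 to 4, on average 2.07% ± 0.526 (SD, n = 4). Replicates 1 and 3 were the high ones. The 13 protein genes of mitochondrial DNA took 1.27%, 8.41%, 5.18% and 12.6% of the same total, lowest in replicate 1 and highest in replicate 4. With these genes taken out of the total, the members took 2.21% ± 0.449 (SD, n = 4), again with the highest values in replicates 1 and 3. Without replicate 1 the mean share was 1.85%. By complex the share was 0.644% ± 0.147 for complex I, 0.0762% ± 0.0227 for complex II, 0.228% ± 0.0513 for complex III, 0.574% ± 0.173 for complex IV and 0.552% ± 0.134 for complex V (SD, n = 4), so that the 12 detected members of complex IV took nearly as large a share as the 39 of complex I.

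**Figure D1:**
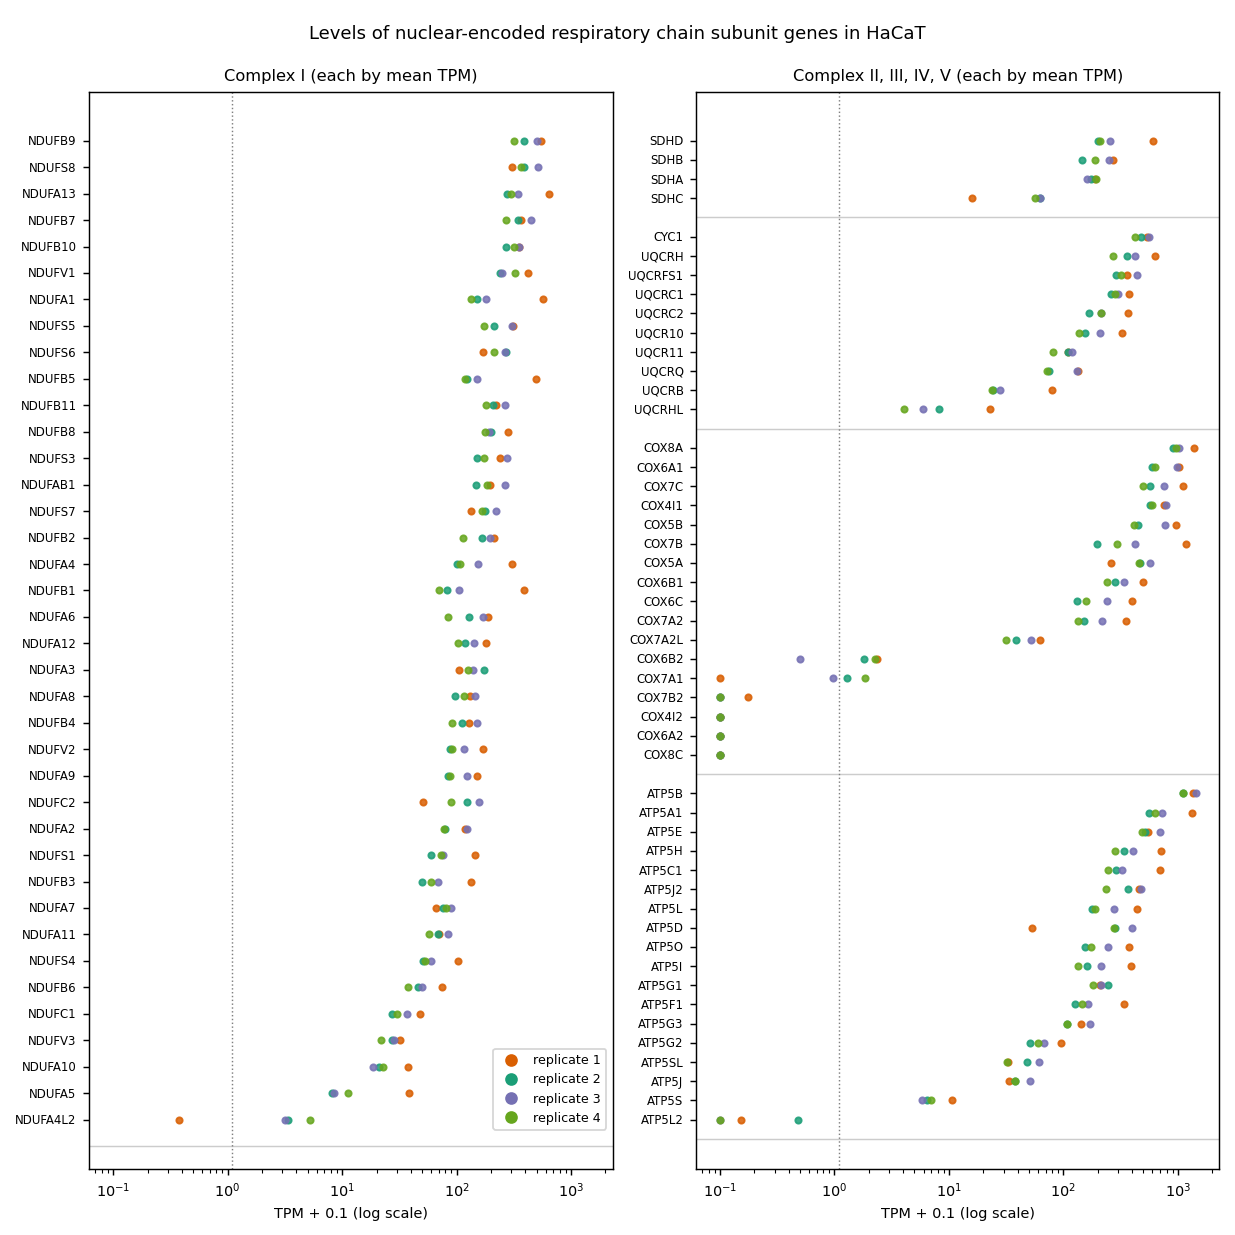
TPM + 0.1 on a log axis of the members (1 of the 88 is not drawn) in replicates 1 to 4 (1 point per replicate), complex I on the left and complexes II to V on the right, each sorted by mean TPM, with the detection limit of a TPM of 1 as a dotted line. Most members sit between 10 and 1000 TPM, the 6 undetected ones lie at the bottom of complexes IV and V, and the points of replicate 1 are often farthest to the right.

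The promoters of these genes are known for binding NRF1, the ETS family factor GABP and YY1, and their letters were therefore looked for on both strands in windows of 250 bases before to 50 bases after each RefSeq start on GRCh38.p14. A window was at hand for 70 of the 88 members, 84 windows in all. Among those without one were CYC1, UQCRB and UQCRHL of complex III and COX4I2, COX6C and COX7A1 of complex IV. Where letters were not found in a complex, this covers only its members with a window. The NRF1 letters GCGCATGCG occurred in 11 of 84 member windows (13.1%), in 3.15% of the windows of detected protein-coding genes and in 1.92% of all 35116 windows. With C required as the next letter the shares were 4.76%, 1.97% and 1.24%. The YY1 letters AAGATGGCG occurred in 10 of 84 member windows (11.9%), against 3.52% and 1.75%. Both sets are shown because the factors are known regulators of respiratory genes. The letters are in capitals with 10 bases on either side, read in the direction of the gene, and where they lie on the other strand the capitals are their reverse complement. NRF1 letters were found in complexes I, II, IV and V, of which up to 2 members with the highest mean TPM are shown for each complex:
NDUFS6: cagaagccgtGCGCATGCGttagcgctaa
NDUFS7: ttccggtttcCGCATGCGCtccgagccgc
SDHD: agctgtgtttGCGCATGCGcgacgggtgt
COX6A1: ggagggcacaCGCATGCGCacgaaggaaa
ATP5C1: gggagcttcgGCGCATGCGcgctgaggcc
ATP5I: gccgctgacgGCGCATGCGtgcgcccagc

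These lie on GRCh38.p14 at chr5:1801351-1801379 (NDUFS6), chr19:1383823-1383851 (NDUFS7), chr11:112086753-112086781 (SDHD), chr12:120437884-120437912 (COX6A1) and chr10:7788145-7788173 (ATP5C1) on the plus strand and at chr4:674336-674364 (ATP5I) on the minus strand. The first capital stood at −46, −74, −110, −219, −22 and −78 in this order, where −1 is the base before the RefSeq start. The 11 members with these letters had mean levels from 16.6 TPM (NDUFA5) to 810.0 TPM (COX6A1), on either side of the members' median. The letters are a description of the window and show no binding in these cells.

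The YY1 letters occurred in members of all complexes but IV, of which the 1 with the highest mean TPM is shown for each complex:
NDUFB8: gaagaaggtgAAGATGGCGgtggccaggg
SDHB: gtcaggagccAAGATGGCGgcggtggtcg
UQCRC1: ctgcagctggAAGATGGCGgcgtccgtgg
ATP5J: aggcgaagaaAAGATGGCGgaggctgtgc

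The positions are chr10:100529836-100529864 (NDUFB8), chr1:17054004-17054032 (SDHB), chr3:48609605-48609633 (UQCRC1) and chr21:25735093-25735121 (ATP5J), all on the minus strand of GRCh38.p14. In NDUFB8, SDHB and UQCRC1 the first capital was base 18, 11 and 24 of the transcribed part, counted from 1 at the RefSeq start. In ATP5J it stood at −57. NDUFB8 and ATP5J each had 2 windows, and their positions are from the start of the window shown. Both windows of ATP5J hold the YY1 letters, so the position differs from its other start. These letters hold an ATG, and their first 3 letters can overlap the last 3 of the ETS letters, which the windows of SDHB and ATP5J also hold, though not within the bases printed. The ETS letters CCGGAAG were found in 25.0% of member windows, 17.3% of those of detected genes and 10.3% of all windows, and TATAAA in 8.33%, 6.45% and 11.5%. All of these shares rest on windows of equal length, whose median GC content was 59.2% for members, 64.7% for detected genes and 58.7% for all windows, and were not tested.

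Complex I takes electrons from NADH through a flavin and a chain of iron-sulfur clusters. Its median over 39 members was 171, 118, 149 and 106 TPM in replicates 1 to 4, or 136 ± 29.6 (SD, n = 4), and 27 of the 39 had a mean above 100 TPM. The nuclear-encoded core comprises 7 subunits with counterparts in bacteria, which include the carriers of the flavin and of the iron-sulfur clusters. NDUFV1 (chr11:67374323-67380012 on hg19), which binds NADH and the flavin, had 423, 240.4, 247 and 321 TPM, and its partner NDUFV2 had 169, 86.9, 115 and 90.8 TPM. NDUFS1, the largest subunit of the same module, had 145, 59.4, 75.6 and 73.2 TPM. All 3 were highest in replicate 1.

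Core subunits of the arm that leads electrons on to ubiquinone were also measured in every replicate. NDUFS8 (chr11:67798084-67804114), which carries a pair of iron-sulfur clusters, was the highest of the core with 305, 387, 518 and 368 TPM and was lowest in replicate 1. NDUFS7 had 134, 179, 222 and 166 TPM, likewise lowest in replicate 1. NDUFS3 had 242, 152, 274 and 174 TPM and, in contrast to NDUFS7 and NDUFS8, was not lowest there.

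The median of the core was 175, 152, 222 and 166 TPM in replicates 1 to 4 and that of the 32 accessory subunits was 161, 115, 148 and 97.4 TPM. The core was thus higher in 4 of 4 replicates, by 0.47 ± 0.28 on the log2 scale (SD, n = 4). The exact permutation test that flips signs within replicates gave a two-sided p of 0.13, which 4 replicates cannot go below. Taking gene lengths from the protein-coding exons of GENCODE release 29, the difference was −0.32. The order of core and accessory subunits therefore depended on the gene length used.

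Among the accessory subunits, NDUFB9 (chr8:125551343-125562227) was the highest member of complex I with 552, 390.2, 504 and 320.1 TPM (442 ± 106, SD, n = 4), and NDUFS8 was next. The low end was held by NDUFA5, with 38.7, 8.07, 8.40 and 11.1 TPM, and by NDUFA4L2 (chr12:57628686-57634545), a hypoxia-induced relative of NDUFA4, with 0.277, 3.29, 3.09 and 5.20 TPM. NDUFA5 was close to level in replicates 2 to 4 and higher in replicate 1, while NDUFA4L2 showed the opposite order on counts of 8, 26, 33 and 46. NDUFA6, a member of the LYR family of small subunits, had 188, 128, 172 and 83.4 TPM and was the only one of the 39 that varied more than 2-fold within replicates 2 to 4. The other accessory subunits had means between 25.0 TPM (NDUFA10) and 389 TPM (NDUFA13).

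Complex II, succinate dehydrogenase, links the chain to the citric acid cycle. Its median was 231, 160.2, 205 and 191 TPM, or 197 ± 29.7 (SD, n = 4). SDHA (chr5:218338-257197), the flavoprotein that oxidizes succinate, had 189, 175, 160.0 and 194 TPM and varied only 1.21-fold over the 4 replicates. SDHB, the iron-sulfur subunit, had 274, 145, 250.1 and 188 TPM, highest in replicates 1 and 3. The ranges of the catalytic pair overlapped, and that of SDHA was the narrower.

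The membrane anchors of complex II differed from each other and did so most in replicate 1. SDHD (chr11:111957548-111966525) had 612, 200.1, 256 and 209 TPM (319 ± 197, SD, n = 4), and its replicate 1 lay 2.76-fold above the mean of the others. SDHC (chr1:161284166-161334541) had 15.7, 62.0, 62.6 and 56.8 TPM (49.3 ± 22.5, SD, n = 4), and replicate 1 was at 0.259 of the mean of the others. Within replicates 2 to 4 SDHC varied only 1.10-fold and SDHD 1.28-fold. With the median transcript length of 460 bases in place of the deposited 2885, SDHC stood at 247 TPM, within the range of the other members of the complex by that length. With the protein-coding exon length of 13566 bases it stood at 12.6 TPM, below the 205 to 270 TPM of the other members by that length. The place of SDHC in the complex thus depended on the length used.

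Complex III moves electrons from ubiquinol to cytochrome c. Its median over 10 members was 342, 161, 211 and 175 TPM, or 222 ± 82.6 (SD, n = 4). CYC1 (chr8:145149938-145152430), cytochrome c1, led with 535, 479, 564 and 424 TPM (500.3 ± 61.8, SD, n = 4), and UQCRH, the hinge protein that binds it, followed with 634, 359, 418 and 271 TPM. The Rieske iron-sulfur protein UQCRFS1 had a mean of 351 TPM and the core proteins UQCRC1 and UQCRC2 had 304 and 240.3 TPM. UQCRB (chr8:97238904-97247862), a small subunit near the ubiquinone site, was second lowest with 80.0, 24.1, 27.7 and 23.9 TPM, and UQCRHL, an intronless relative of UQCRH, was lowest with 22.9, 8.11, 5.79 and 3.99 TPM. Both were highest in replicate 1. The small subunits UQCR10, UQCR11 and UQCRQ had means of 207, 104 and 103 TPM.

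Complex IV, cytochrome c oxidase, had the highest median of the 5 complexes, with 629, 368, 497 and 353 TPM in replicates 1 to 4, or 462 ± 129 (SD, n = 4). COX8A (chr11:63742079-63744015), the general form of its smallest subunit, was highest with 1377, 915, 1018 and 959 TPM (1067 ± 211, SD, n = 4). COX6A1 was next with 1030.1, 597, 983 and 629.8 TPM, and COX7C, COX4I1 and COX5B followed with means of 736, 679 and 650.0 TPM. COX4I1 is the regulatory subunit at which ATP is known to act, and COX5B binds zinc. COX5A, known to bind a thyroid hormone metabolite, was the only detected member of this complex that was lowest in replicate 1, with 262, 467, 576 and 459 TPM.

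COX7B (chrX:77154961-77160881) had 1189, 199, 418 and 294 TPM and varied most within replicates 2 to 4 of the members above 100 TPM. It was 2.11-fold apart within replicates 2 to 4 and 5.99-fold apart over all 4. COX6C had a mean of 232 TPM, and COX7A2L, known as a factor of supercomplex assembly, was second lowest of the detected members with 61.8, 38.7, 52.5 and 31.4 TPM. The lowest detected member was COX6B2, a form known from testis, with 2.25, 1.72, 0.401 and 2.18 TPM on counts of 91, 19, 6 and 27. COX6B2, at a mean of 1.64 TPM, and NDUFA4L2, at 2.96 TPM, were the members nearest above the limit of 1, and COX7A1, at 0.955 TPM, was the nearest below.

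The ATP synthase had a median of 377, 179, 247 and 179.6 TPM in replicates 1 to 4, or 245 ± 93.1 (SD, n = 4). ATP5B (chr12:57031959-57039852), the catalytic beta subunit, was the most abundant member of all with 1359, 1110.4, 1430.0 and 1105 TPM (1251 ± 168, SD, n = 4) and the first of the members in replicates 2 to 4. ATP5A1, the alpha subunit, had 1322, 565, 724 and 633 TPM, and was highest in replicate 1. The remaining F1 subunits were ATP5E, the epsilon subunit, with a mean of 563 TPM, ATP5C1, the gamma subunit of the rotor, with 390.1 TPM, and ATP5D, the delta subunit, with 52.7, 283, 399 and 278 TPM. ATP5D had the highest GC content of the detected members, 69.6%, and was at 0.165 of the mean of the others in replicate 1.

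The median of the 5 F1 subunits was 699, 520.5, 701 and 485 TPM and that of the 10 detected membrane and stalk subunits was 358, 158, 213 and 160.3 TPM. F1 was higher in 4 of 4 replicates, by 1.5 ± 0.36 on the log2 scale (SD, n = 4; exact permutation of signs, two-sided p = 0.13). Replicate 1 showed the smallest difference, 0.97 against 1.60 to 1.72, with a mean of 1.68 without replicate 1. With the median transcript length it was 0.95, in the same direction. Of the membrane and stalk subunits, ATP5J2, subunit f, had 457, 365, 479 and 234 TPM and varied 2.05-fold within replicates 2 to 4. ATP5J, coupling factor 6, was low with 33.2, 37.9, 50.6 and 38.0 TPM. ATP5S, which is counted with complex V only by its name, was the lowest detected member there with 10.5, 6.36, 5.76 and 6.83 TPM.

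**Figure D2:**
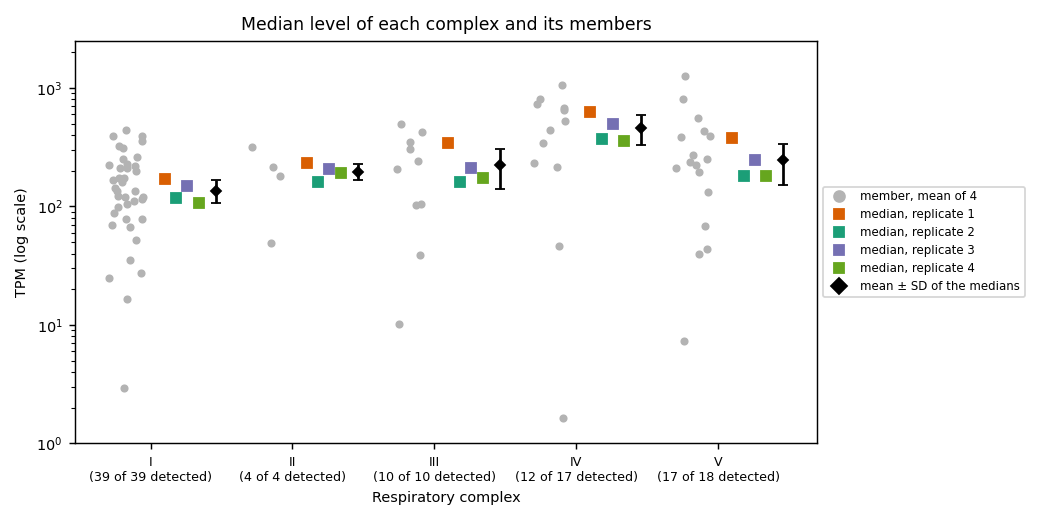
Mean TPM of each detected member (grey points) and the median of each complex in replicates 1 to 4 (coloured squares), with the mean ± SD of the 4 medians (black), on a log axis. The medians of complex IV, 353 to 629 TPM, lie above those of the other complexes in every replicate, and complex I, 106 to 171 TPM, has the lowest median in every replicate.

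The medians of the complexes were compared within replicates. Complex IV was the highest in 4 of 4 replicates. On the log2 scale, complex I minus complex IV was −1.75 ± 0.10, complex II minus complex IV −1.20 ± 0.23, complex III minus complex IV −1.08 ± 0.16 and complex IV minus complex V 0.94 ± 0.14 (SD, n = 4). Complex I was the lowest in 4 of 4 replicates, at −0.55 ± 0.20 against complex II, −0.67 ± 0.25 against complex III and −0.81 ± 0.23 against complex V. Each of these 7 differences exceeded the spread between replicates, with a two-sided p of 0.13 when signs were permuted exactly and 0.16 after Benjamini-Hochberg adjustment over 10 pairs. With 4 replicates this test cannot go lower, so it cannot reach 0.05.

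Complex III minus complex V was −0.14 ± 0.08, with complex III lower in 4 of 4 replicates (exact p = 0.13, adjusted 0.16). Complexes II and V differed by −0.26 ± 0.33 (exact p = 0.25, adjusted 0.28) and complexes II and III by −0.12 ± 0.30 (exact p = 0.63, adjusted 0.63), both within the spread between replicates, with 1 of 4 replicates higher in complex II. The order of complexes II, III and V was thus not resolved. Without replicate 1 and with the same 12 members, the median of complex IV was 406 TPM and complex I minus complex IV was −1.70. COX7A1 passes the detection limit in replicates 2 to 4, and with it the median was 332 TPM and the difference −1.41. Complex II minus complex III was 0.03 without replicate 1. The place of complex IV at the top depended on the length correction and on the length used. With the protein-coding exon length the medians of complexes II to V were close, at 204, 201, 217 and 207 TPM. Complex II minus complex IV was then −0.08, complex III minus complex IV −0.13 and complex IV minus complex V 0.07. With counts scaled to 1000000 without length, complex II was above complex IV by 0.35 and complex III by 0.04. Over all 17 members, the undetected ones included, the median of complex IV was 225 TPM and complex IV minus complex V was −0.07.

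The 6 undetected members were all second forms or relatives of a subunit gene. COX4I2, known from lung, COX6A2, known from heart and skeletal muscle, and COX8C, known from testis, had 0 counts in all 4 libraries. COX7B2, also known from testis, had 1 count in replicate 1 and 0 in the others, and ATP5L2, a relative of ATP5L, had 1, 2, 0 and 0 counts. COX7A1, the heart and muscle form of COX7A2, had 0, 6, 6 and 10 counts, or 0, 1.18, 0.876 and 1.76 TPM. The muscle markers summed to 0.365 to 5.14 TPM, and their highest sum was in replicate 1, where COX7A1 had no count.

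The general forms were far above these. Against a floor of 3 counts per library, COX4I1 was at least 864- to 4232-fold higher than COX4I2, COX6A1 at least 582- to 3671-fold higher than COX6A2, and COX8A at least 1076- to 5921-fold higher than COX8C in the 4 replicates, with the highest bound in the deep replicate 1. COX7B was at least 240.3- to 684-fold higher than COX7B2 in replicates 2 to 4. COX7A2, with 354, 152, 218 and 135 TPM, was 128, 248 and 76.5 times COX7A1 per kilobase in replicates 2 to 4, and at least 2188-fold higher in replicate 1. The 95% Clopper-Pearson intervals of these 3 ratios were 58.6 to 350.4, 114 to 678 and 41.4 to 160.2, and cover counting error only.

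Where both forms were seen, the ratio varied between replicates. COX6B1, with 495, 285, 342 and 239 TPM, was 219.9, 166, 851 and 109.5 times COX6B2 per kilobase. NDUFA4, with 303, 101, 154 and 106 TPM, was 1094, 30.6, 49.9 and 20.4 times NDUFA4L2 per kilobase. The interval of the first, 555 to 2534, did not overlap those of replicates 2 to 4, which lay between 15.3 and 72.7. UQCRH was 27.7, 44.2, 72.3 and 67.9 times UQCRHL, with replicate 1 below the others. The general form was the higher one in 4 of 4 replicates in each of the 8 pairs of a general and a second form (exact permutation of signs on log2(TPM + 1), two-sided p = 0.13, adjusted 0.13 over 11 pairs).

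**Figure D3:**
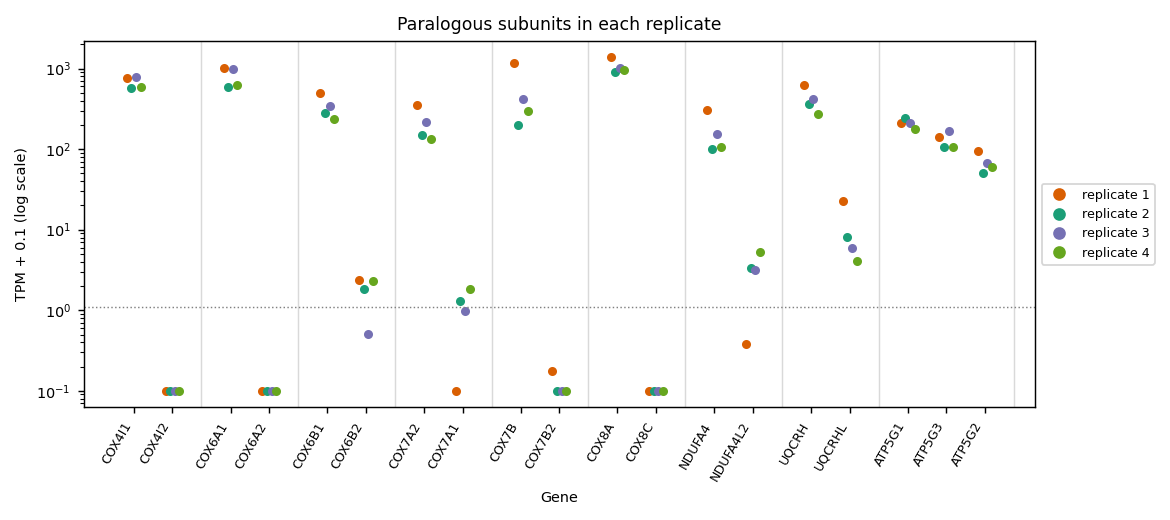
TPM + 0.1 on a log axis of the paralogous subunits in replicates 1 to 4 (1 point per replicate), with the detection limit dotted. In 8 pairs the general form stands far above its relative, whereas the 3 genes for subunit c (ATP5G1, ATP5G3, ATP5G2) lie within 1 order of magnitude of each other.

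Subunit c, which forms the proton-driven ring of the ATP synthase, is made as 1 mature protein from 3 genes. ATP5G1 had 211, 245, 212 and 179.6 TPM, ATP5G3 141, 108, 169.9 and 107 TPM and ATP5G2 96.0, 51.0, 67.7 and 59.7 TPM. By the deposited length ATP5G1 gave 51.7% ± 6.41 of the sum of the 3, ATP5G3 31.7% ± 4.58 and ATP5G2 16.6% ± 3.73 (SD, n = 4), in the same order in all 4 replicates. The deposited lengths were 647 bases for ATP5G1, 3482 for ATP5G3 and 2793 for ATP5G2. By the median transcript length of 539, 842 and 811.5 bases ATP5G3 gave 52.2% ± 4.65, ATP5G1 25.1% ± 5.01 and ATP5G2 22.7% ± 4.27. ATP5G3 minus ATP5G1 was −0.70 ± 0.36 on the log2(TPM + 1) scale with the first length (exact p = 0.13, adjusted 0.13) and 1.07 with the second, so which gene leads was set by the length used.

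The level of other members moved with the gene length as well. UQCRB was at 38.9 TPM by its deposited length of 5223 bases and at 253 TPM by its median transcript length of 645 bases. NDUFA10 moved from 25.0 to 131 TPM, NDUFC2 from 105 to 371 TPM and SDHC from 49.3 to 247 TPM. In the other direction ATP5E moved from 563 to 105 TPM and UQCRFS1 from 351 to 99.2 TPM. UQCRB, NDUFA10 and SDHC were thus low in their complexes by the deposited length and not by the median transcript length. By the protein-coding exon length they were low again, at 41.2, 47.2 and 12.6 TPM. The medians of their complexes by that length were 201 (III), 120 (I) and 204 TPM (II).

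Reads shared with other genes could touch single members. Of the 88 members, 30 overlapped another gene of the files, 13 on the same strand and 20 on the opposite one. The share of all protein-coding genes with such an overlap was not computed, so the count marks no trait of the members. Whether the counting used the strand is not given in the sources used here. The readthrough gene NDUFC2-KCTD14 had 1, 1815, 2954 and 1374 counts, or 0.0324%, 90.3%, 84.7% and 83.1% of those of NDUFC2, and ATP5J2-PTCD1 had 6, 827, 1232 and 729. Both readthrough genes were thus almost without counts in replicate 1 alone. NDUFC2 was also lowest there, whereas ATP5J2, with 457 TPM, was second highest of the 4 replicates there. The part of the readthrough genes in the level of either member was not tested. Pseudogenes named after 40 members made 111 entries and held 0.304% to 0.745% as many counts as the members. SDHAP1 was the largest, with 9.05% to 14.7% of the count of SDHA. UQCRHL, the intronless relative of UQCRH, held 0.956% to 2.46% of the summed counts of the pair. Whether reads of UQCRH were among the counts of UQCRHL was not tested.

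Few members differed more than 2-fold within replicates 2 to 4, and more did with replicate 1 included. Of the 82 detected members 37, or 45.1%, differed more than 2-fold between the highest and lowest of the 4 replicates, against 64.2% of all detected genes. Within replicates 2 to 4 this held for 5, or 6.10%, against 30.3%. The shares were not matched for level, and the members had a median of 208 TPM against 24.5 TPM for all detected genes. These 5 were NDUFA6, UQCRHL, COX7B, COX6B2 and ATP5J2, of which UQCRHL and COX6B2 rested on 6 to 29 counts in those libraries. The count was 9 with upper-quartile scaling, 3 with TPM over nuclear genes and 2 with TPM over all genes. No share of all detected genes was computed for this count at those scalings. The median ratio of highest to lowest within replicates 2 to 4 was 1.43 for members and 1.62 for all detected genes. Across the 82 members the Spearman correlation of TPM was 0.971 to 0.972 between pairs of replicates 2 to 4 and 0.833 to 0.851 between replicate 1 and the others, a description over genes of the same libraries. Of the members, 7, namely ATP5B, COX8A, ATP5A1, COX6A1, COX7C, COX4I1 and COX5B, were among the 10 highest in all 4 replicates.

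Replicate 1 was the highest of the 4 in 52 of 82 members, or 63.4%, against 40.2% of all detected genes, and the lowest in 11, or 13.4%, against 37.4%. Complexes III and IV showed the largest share, with 7 of 10 and 10 of 12 highest in replicate 1. The 11 lowest there were NDUFA3, NDUFA4L2, NDUFA7, NDUFC2, NDUFS6, NDUFS7, NDUFS8, SDHC, COX5A, ATP5D and ATP5J. The median ratio of replicate 1 to the mean of replicates 2 to 4 was 1.48 for members and 1.00 for all detected genes. More than 2-fold above that mean were 20 members, or 24.4%, against 18.3%, and more than 2-fold below were 4 (NDUFA4L2, NDUFC2, SDHC and ATP5D), or 4.88%, against 23.2%.

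The 6 members farthest above in replicate 1 were NDUFB1, NDUFA5, COX7B, UQCRHL, NDUFB5 and NDUFA1, at 3.65 to 4.57 times the mean of the others. NDUFB1 had 390.4, 82.0, 104 and 70.3 TPM, NDUFA1 568, 151, 182 and 134 TPM and NDUFB5 499, 124, 149 and 119 TPM. In NDUFB1, NDUFA1 and NDUFB5 replicate 1 was well apart from 3 close values. COX7B and UQCRHL, by contrast, differed 2.11-fold and 2.03-fold within replicates 2 to 4. The direction depended on the total used for scaling. With TPM over all genes of the files, in place of protein-coding genes, replicate 1 was highest in 6 members, or 7.32% against 4.30% of all detected genes, and lowest in 71, or 86.6% against 80.7%. The median ratio was then 0.511 for members and 0.345 for all detected genes. The members' median ratio was thus above that of all genes under both totals, while their share lowest in replicate 1 was below that of all genes under one total and above it under the other.

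GC content moved with this ratio. Over the 82 members the Spearman correlation of transcript GC content with the log2 ratio of replicate 1 was −0.50, and it was −0.50 over 12007 detected genes too. The 25 members below 45% GC had a median ratio of 2.04, the 21 from 45% to 50% 1.47, the 15 from 50% to 55% 1.27 and the 21 above 55% 1.07. All detected genes had 1.63, 1.05, 0.771 and 0.594 in the same bands. Members were above all genes in each band, and the part of GC content in the result was not tested.

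**Figure D4:**
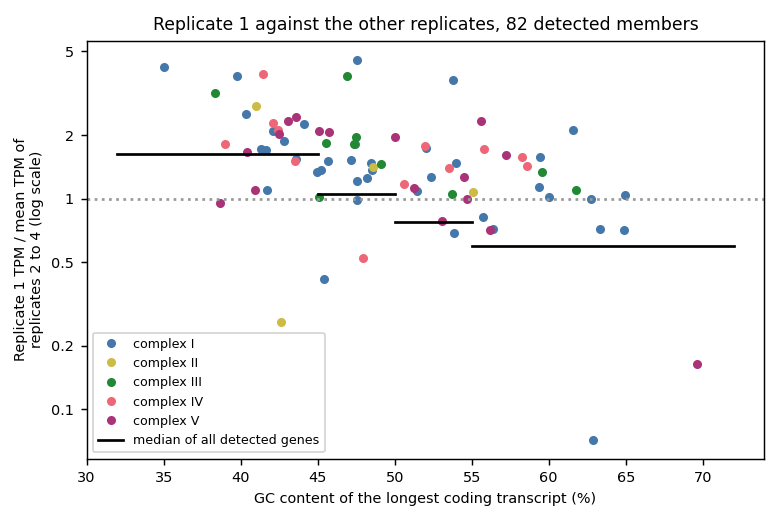
Ratio of the TPM of replicate 1 to the mean of replicates 2 to 4 (log axis) against the GC content of the longest coding transcript, 1 point per detected member, coloured by complex, with the median of all detected genes in 4 GC bands as black lines. Members below 45% GC lie mostly above 1 (median 2.04), those above 55% scatter around 1 (median 1.07), and SDHC, NDUFC2, NDUFA4L2 and ATP5D lie far below.

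Within replicates 2 to 4, replicate 3 was the highest in 69 of 82 members, or 84.1%, against 20.1% of all detected genes. This count was chosen after the members' values were seen. By complex it held for 31 of 39 in complex I, 3 of 4 in II, 9 of 10 in III, 11 of 12 in IV and 15 of 17 in V. The median ratio of replicate 3 to the mean of replicates 2 and 4 was 1.30 for members and 0.781 for all detected genes. ATP5B (1110.4, 1430.0 and 1105 TPM in replicates 2 to 4), COX6A1, COX5B and NDUFS8 followed it, whereas SDHA and COX6B2 were lowest in replicate 3. The count was 64 with TPM over nuclear genes, 65 with TPM over all genes and 71 with upper-quartile scaling, against 16.4%, 17.6% and 28.3% of all detected genes.

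This order moved with gene length. Below 1000 bases 36 of 41 members were highest in replicate 3, against 54.7% of all detected genes of that length, and from 1000 to 2000 bases 19 of 22 against 40.9%. From 2000 to 4000 bases it was 13 of 16 against 21.2%, and above 4000 bases 1 of 3 (UQCRB) against 4.57%. The median ratio of all genes was 1.21 in the shortest band and 0.610 in the longest, and that of members was 1.37 and 0.874. The part of length in the count was not tested, and the members' share exceeded that of all genes in each band.

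**Figure D5:**
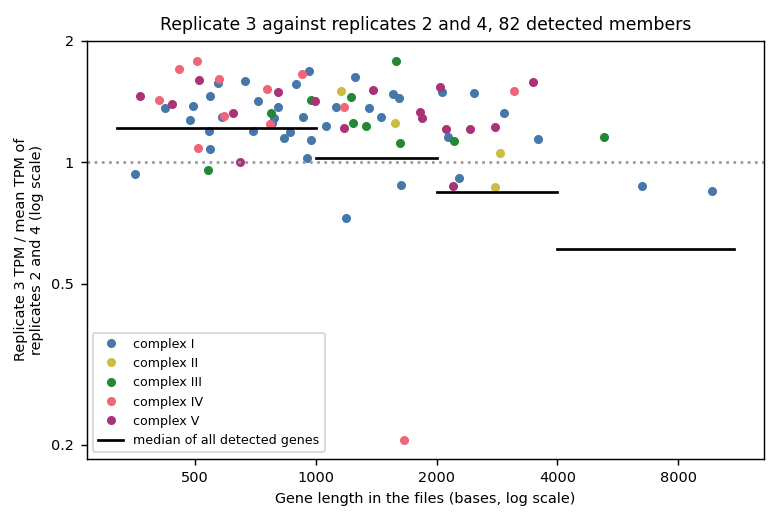
Ratio of the TPM of replicate 3 to the mean of replicates 2 and 4 (log axis) against the deposited gene length (log axis), 1 point per detected member, coloured by complex, with the median of all detected genes in 4 length bands as black lines. Most members lie above 1 and above the black line of their band, and COX6B2, on 6 counts in replicate 3, is the lowest point.

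Factors that assemble the chain had lower levels than its subunits. All 51 assembly factors listed were detected, with a median of 39.9 TPM against 208 TPM for the subunits and means from 4.16 TPM (SDHAF3) to 182 TPM (COA4). COX17, the copper chaperone of complex IV, had 113, 65.1, 134 and 94.9 TPM, and SURF1, needed for its assembly, had 55.1, 73.0, 76.5 and 79.5 TPM. Within replicates 2 to 4, 8 of the 51 differed more than 2-fold, against 30.3% of all detected genes. Replicate 1 was highest in 25 of the 51, against 40.2% of all detected genes, and lowest in 13, against 37.4%.

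Of 11 regulators of mitochondrial biogenesis 10 were detected. ESRRA, a nuclear receptor that acts with the PGC-1 coactivators, was the highest with 183, 105, 160.0 and 164 TPM. The coactivator PPARGC1A was below the limit with 0.886, 0.179, 0.0441 and 0.16 TPM, while its relatives PPARGC1B and PPRC1 had 5.47, 9.43, 5.55 and 5.68 TPM and 5.22, 63.8, 34.7 and 35.9 TPM. NRF1, whose letters are shown above, had 6.41, 17.7, 22.7 and 14.3 TPM and YY1 77.3, 76.8, 121 and 128 TPM, with NRF1 lowest in replicate 1 and YY1 lower in replicates 1 and 2. CYCS, the cytochrome c that carries electrons between complexes III and IV, had 134, 89.5, 70.1 and 70.9 TPM, and ATPIF1, the inhibitor of the ATP synthase, had 95.9, 79.5, 75.2 and 73.2 TPM.

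The mitochondrial DNA encodes the other subunits of complexes I, III, IV and V. The median level of its 7 complex I genes was 0.858, 20.1, 10.9 and 38.8 times that of the nuclear members in replicates 1 to 4, and that of its 3 complex IV genes was 6.30, 41.0, 17.6 and 57.1 times. Both ratios were lowest in replicate 1 and highest in replicate 4.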

How the data were processed

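RNA-seq was analysed in 1 group of 4 labelled replicates of untreated HaCaT cells. For each gene the authors deposited a raw read count and a length, and beside them RPKM for replicates 1 and 2 and TPM for replicates 3 and 4. Since the deposited RPKM and TPM are different units, TPM over protein-coding genes was computed from the counts and lengths. The submitters' processing notes name HISAT, HISAT2, TopHat2, Bowtie2 and hg19, without versions or roles. The counting program, the annotation and the selection of RNA are not given in the sources used here. Gene positions are those of the files, and promoter windows are from RefSeq (GRCh38.p14).

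The members and lists were chosen with earlier results of these data known. Values are mean ± SD over replicates. A gene with a mean TPM above 1 was called detected. Values within replicates were compared by two-sided exact sign-flip permutation tests, on log2(TPM + 1) for paralogs, with Benjamini-Hochberg adjustment within each family. That scale understates differences of low genes. The 95% Clopper-Pearson intervals and the floor of 3 counts per library reflect counting error alone, as no molecular identifiers are described and several reads may copy 1 molecule. Total counts were 73082279, 17056035, 19745170 and 19083836, so replicate 1 gives the finest steps for low members. No test of differential expression was run, as there is 1 condition. If the replicates were not separate cultures, the p-values measure only technical spread.

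Every member is accounted for by complex. Values in each replicate are given for the 2 highest and 2 lowest members of each complex by mean TPM, the paralog pairs, complex II, complex I core subunits, undetected members and those above 2-fold within replicates 2 to 4, and other members were named after their values were seen. The values of 1 member are not reported here, although it enters the counts and medians. Alternatives were TPM over all genes, counts scaled to 1000000 without length, protein-coding exon length (GENCODE release 29, found for 98.8% of protein-coding genes), upper-quartile scaling, other limits, folds and pseudocounts, NDUFA4 in complex IV, all members, and leaving out each replicate. The NRF1 letters were searched first with the added C and then without it, after the first counts were seen. The median transcript length, TPM over nuclear genes, complex V without ATP5S and ATP5SL, and replicates 2 to 4 with the members detected over all 4 were added after seeing the data. The scripts were tested on simulated data. The tools were SciPy 1.17.1, pandas 2.3.3, NumPy 2.4.6 and matplotlib 3.10.9 under Python 3.11.15.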

Additional observations from a re-analysis of the deposited data

Results flagged for a closer look

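In 10 of 111 sets of 4 replicate values, 1 replicate was so far from the others that its gap to the nearest one, as a share of the whole range, exceeded Dixon's 95% critical value. For independent sets chance would give about 1 in 20, or 5.55 of 111. The sets share the same 4 libraries and are not independent, so this number is no measure for the count. The share of all detected genes flagged by this rule was not computed. Of the 82 detected members 8 were flagged, always with replicate 1 apart. It was the highest in NDUFA1 (gap 0.891 of the range), NDUFA5 (0.900), NDUFB1 (0.894), NDUFB5 (0.921) and NDUFS4 (0.841) of complex I, in SDHD (0.864) of complex II and in UQCRB (0.931) of complex III. In SDHC of complex II it was the lowest (0.876), so that the pair of membrane anchors of succinate dehydrogenase was set apart in opposite directions. The difference of F1 and membrane or stalk subunits was lowest in replicate 1 (0.835), and that of complexes I and II was lowest in replicate 4 (0.947).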

How the results depend on the processing

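Gene length and the scaling total set most of what changed. With TPM over all genes the medians were 96.7 (complex I), 143 (II) and 321 (IV) TPM and the members' share 1.45%. With counts scaled to 1000000 without length the medians were 69.7, 140.3, 117, 114 and 98.5 for complexes I to V and the share was 0.982%. Under that setting complex II minus complex III was 0.31, II minus IV 0.35, II minus V 0.50, III minus IV 0.036, III minus V 0.18, ATP5G3 minus ATP5G1 1.70 and ATP5G2 minus ATP5G1 0.44 on the log2 scale, each opposite to the reported direction. With the protein-coding exon length the median of complex IV was 217 TPM, complex II minus complex III 0.052, ATP5G3 minus ATP5G2 −0.068 and core minus accessory −0.32. With the median transcript length the medians of complexes II and IV were 238 and 325 TPM, complex II minus complex III was 0.24, II minus V 0.087 and ATP5G3 minus ATP5G1 1.07. Over all members the median of complex IV was 225 TPM, III minus IV 0.0045 and IV minus V −0.074. Which transcripts the cells use was not tested.

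Leaving out each replicate in turn gave 332 to 498 TPM for complex IV, −0.20 to 0.025 for complex II minus complex III, and 6 to 35 members above 2-fold between replicates, with the lowest count and the reversed sign without replicate 1, where COX7A1 joins the detected members (5 without it). Over all 4 replicates the count of 37 became 69 at 1.5-fold, 15 at 3-fold, 50 with TPM over all genes and 47 with upper-quartile scaling. Within replicates 2 to 4 the count of 5 became 33 at 1.5-fold, 1 at 3-fold, 2 with TPM over all genes, 3 over nuclear genes and 9 with upper-quartile scaling. The share of all detected genes was not computed at these other folds and scalings. The counts therefore show only how far the setting moved them. Upper-quartile scaling otherwise kept 29 of 30 results that answer a comparison. It scales each library by a single factor, so log2 differences between complex medians of a library could not change under it. All were kept with NDUFA4 in complex IV (15 of 15) and with complex V without ATP5S and ATP5SL (15 of 15). These 2 changes cannot touch results on the complexes they leave alone, so the tallies are no measure of robustness. Pseudocounts of 0.1 and 0 kept 11 of 11 and 6 of 6. Without replicate 1 the mean fell more than 1.5-fold in 7 of 82 detected members: NDUFB1 (162 to 85.5 TPM), NDUFA5 (16.6 to 9.20), COX7B (525.0 to 304), UQCRHL (10.2 to 5.96), NDUFB5 (223 to 131), NDUFA1 (259 to 156) and UQCRB (38.9 to 25.2). The share of all detected genes whose mean fell this far was not computed. Under upper-quartile scaling and TPM over nuclear genes the mean of each of the 82 moved by less than 1 SD, whereas 59 moved further without length, 40 with TPM over all genes, 38 with exon length and 35 with median transcript length. No paired analysis was possible because there is 1 group, so no second group shares its replicate numbers. Depth limits the low members: in replicates 2 to 4, COX6B2, COX7A1 and UQCRHL rested on at most 29 counts. No result reached 0.05 under any alternative, and a design of 4 replicates could not show it.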
